A study of Homo sapiens with 28 samples.

Results

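The mitotic kinesins KIF2C, KIF4A, KIF11, KIF14, KIF15, KIF18A, KIF20A, KIF20B, KIF23 and CENPE were followed across 16 RNA-Seq libraries of prostate cancer cells in which ONECUT2, a homeobox transcription factor, was depleted or overexpressed. They were taken by gene symbol, and all 10 of 10 were found among the 19662 gene symbols of the expression table of each cell line. PC3 and LNCaP are established prostate cancer lines, of which LNCaP responds to androgen. PC3 cells were given a control siRNA, siCtrl, or 1 of 2 siRNAs to ONECUT2, siOC2, and LNCaP cells carried an empty vector or a vector for Flag-tagged ONECUT2 (Flag-OC2). The study's methods describe a pCMV6 overexpression vector for ONECUT2 and lentiviral vectors, among them one with a CMV promoter. Which of them was used for these libraries is not stated. Cells of each kind were kept in normoxia or in a hypoxia chamber at 0.2% oxygen, which gave 4 groups of 2 libraries per line. In each siOC2 group library 1 was made with one siRNA sequence, here siRNA1, and library 2 with another, siRNA2, so the libraries of these groups are also different reagents. Both lines are single cell lines, and no source used here says whether libraries of a group came from separate cultures, so p-values measure the spread between these libraries, which may be technical. Levels are RPKM, reads scaled by transcript length and by the mapped reads of the library, and differences are on the scale of log2(RPKM + 0.1) with adjusted p from limma.

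Kinesins are motor proteins that walk along or take apart microtubules at the cost of ATP. Those named here build the spindle, move chromosomes on it or close the cell at cytokinesis, and their transcripts are made mostly in G2 and M phase. Promoters of such late cell cycle genes often hold a cell cycle genes homology region (CHR), a short element bound by the DREAM complex in resting cells and by the MuvB complex with B-MYB and FOXM1 in dividing cells, together with CCAAT boxes bound by NF-Y.

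The promoters of the 10 genes were searched for these letters, because the genes were measured as mRNA and share a known mode of control at this place. In RefSeq promoter sequences of 300 bases around the start, TTTGAA or its variant TTTAAA on either strand occurred in all 10 of 10 genes, against 24% of 35116 promoters. Within the last 100 bases before the start one of these forms was present in 7 of 10 genes, against 8.24% of promoters. CCAAT on either strand was present in 7 of 10, against 34.6%. The ONECUT core letters ATCAAT were present in 0 of 10, against 6.26%, and the hypoxia response letters ACGTG in 5 of 10, against 21.4%. TTTAAA reads the same on both strands, and motifs that overlap were each counted. A match describes letters, not a bound site. The 7 windows below hold the matches nearest the start, with each CHR form and CCAAT box in capitals, 5′ to 3′ on the strand of the gene and with GRCh37 positions.
KIF4A, chrX:69509886-69509945, plus strand: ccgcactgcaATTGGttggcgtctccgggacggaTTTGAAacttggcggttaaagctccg
KIF11, chr10:94352825-94352884, plus strand: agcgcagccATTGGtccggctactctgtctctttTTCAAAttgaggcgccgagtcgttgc
KIF18A, chr11:28129704-28129763, minus strand: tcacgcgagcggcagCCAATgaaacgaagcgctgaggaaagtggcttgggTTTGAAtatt
KIF20A, chr5:137514726-137514785, plus strand: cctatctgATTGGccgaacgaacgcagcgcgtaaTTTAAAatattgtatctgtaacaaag
KIF15, chr3:44803233-44803262, plus strand: tccgatccaagcgccaaaTTCAAAtttgcg
KIF23, chr15:69706615-69706644, plus strand: cgggcgctgATTGGcccgTTTGAAatgcgc
CENPE, chr4:104119551-104119580, minus strand: cgtttgggaaatTTTAAATTTAAAggcggg
The first 4 windows hold 60 bases and lie outside annotated exons. The last 3 lie before the RefSeq start but wholly within an annotated GENCODE exon, whose start is further upstream, and were kept to 30 bases. In KIF4A, KIF11, KIF20A and KIF23 an inverted CCAAT box lies upstream of a CHR form. That form is on the opposite strand in KIF11 and is the variant TTTAAA in KIF20A. The form begins 34, 28, 41 and 55 bases before the start, and the gap between box and form is shortest in KIF23. In CENPE a pair of TTTAAA letters lie head to tail, and in KIF18A the form begins 10 bases before the start. In KIF2C and KIF20B the forms lie at or after the start, and in KIF14 a TTTGAA lies just after it and a TTTAAA begins at position −198 from it.

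ONECUT2 itself was low in PC3 and lower after both siRNAs. It stood at 1.77 and 1.16 RPKM in normoxic siCtrl and at 0.648 and 0.550 in hypoxic siCtrl, against 0.276 and 0.125 with siRNA1 and 0.204 and 0.214 with siRNA2 (normoxia, then hypoxia). Over both oxygen levels it fell by 1.83 with siRNA1 (limma, adjusted p = 0.0178) and by 1.74 with siRNA2 (adjusted p = 0.0222). Genes were tested where at least 2 libraries of a line reached 1 RPKM, and ONECUT2 did so only in normoxic siCtrl. Its p-values are therefore not independent of that filter. In LNCaP empty vector cells ONECUT2 was between 2.89 and 11.5 RPKM, and its cells hold no number in the table for the 4 overexpression libraries, so the gene was dropped from the fit there and the overexpression could not be checked. CA9, a carbonic anhydrase induced by low oxygen, rose in hypoxia by 6.07 in PC3 siCtrl (limma, adjusted p = 0.00515) and by 2.90 in LNCaP empty vector cells (adjusted p = 0.0023). In LNCaP empty vector cells its means were 0.502 RPKM in normoxia and 4.47 in hypoxia. Without its hypoxic libraries CA9 would not have passed the same filter in either line, so its p-values are not independent of it. KLK3, which encodes prostate-specific antigen and marks LNCaP, was listed at 0 in all 8 PC3 libraries and was between 1842 and 3997 RPKM in the 8 LNCaP libraries. The PC3 markers VIM, CAV1, CD44 and AXL summed to 656 to 1157 RPKM in siCtrl and to 311 to 709 in siOC2. Sequencing depth is not given. From the size of the smallest steps in RPKM, the siOC2 hypoxia siRNA1 library was the shallowest of PC3, at 0.347 of the depth of the second normoxic siCtrl library, and a siCtrl library of each oxygen level stood at 0.419 (normoxia, library 1) and 0.383 (hypoxia, library 2). That siRNA1 library in hypoxia was also the lowest of the 8 PC3 libraries for 8 of the 10 kinesins, and the part of depth in this was not tested.

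KIF23, CENPE and KIF20A were the most abundant of the kinesins per kilobase in normoxic siCtrl PC3, and KIF4A, KIF15 and KIF18A the least. The means over 2 libraries were 22.0 RPKM for KIF23, 19.4 for CENPE and 16.3 for KIF20A. KIF11, KIF20B, KIF14 and KIF2C followed at 13.0, 12.3, 11.1 and 7.66 RPKM. KIF4A, KIF15 and KIF18A stood at 2.90, 2.61 and 2.45 RPKM. The libraries of CENPE and KIF20A overlapped, as did those of KIF11 and KIF20B, of KIF4A and KIF15 and of KIF15 and KIF18A, so 4 of the 9 neighbouring pairs in this order were not apart by more than their spread. The highest mean was 8.97 times the lowest.

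In LNCaP the order of levels was different at several places. CENPE led in normoxic empty vector cells with 43.7 RPKM, followed by KIF20A with 34.2 and KIF2C with 26.4. KIF23, KIF11, KIF4A, KIF20B and KIF15 lay between 14.3 and 7.23 RPKM, and KIF14 and KIF18A were lowest at 3.81 and 3.25. In this group 6 of the 9 neighbouring pairs overlapped, and the highest mean was 13.4 times the lowest. The lines have tables of their own, so their levels were set side by side without a test. KIF4B, an intronless copy of KIF4A, was between 0.039 and 0.270 RPKM over all 16 libraries. Reads from such near-identical sequence can be assigned to either copy, and the KIF4A values carry that uncertainty.

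**Figure D1:**
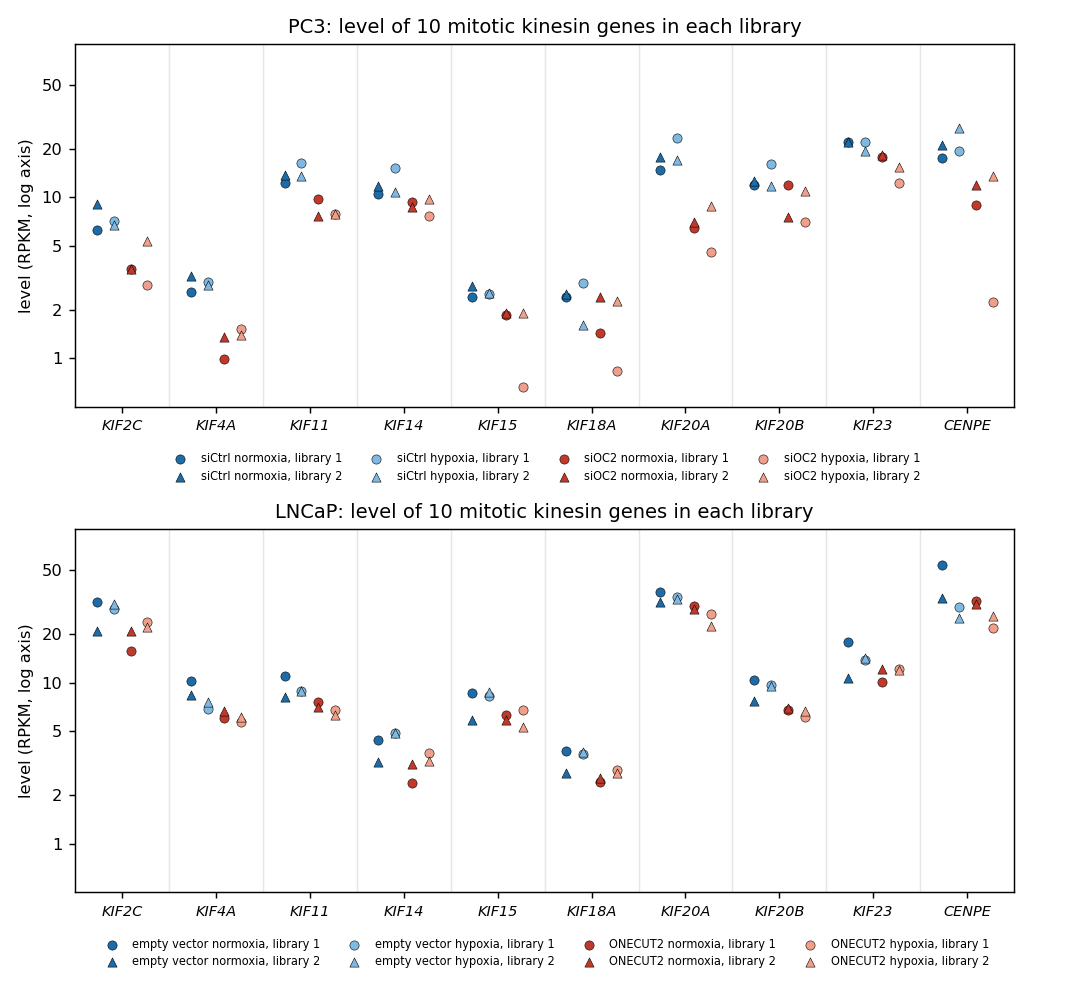
RPKM of the 10 mitotic kinesins on a log axis, PC3 on one panel and LNCaP on the other, with circles for library 1 and triangles for library 2 of each group. In PC3 the red siOC2 points lie below the blue siCtrl points for 8 of 10 genes, with CENPE reaching 2.25 RPKM in the hypoxic siRNA1 library. In LNCaP the colours lie closer together, with the red Flag-OC2 points below the blue empty vector points for 4 of 10 genes.

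Depletion of ONECUT2 in PC3 came with lower kinesin transcripts, most clearly for KIF20A. All 4 siOC2 libraries lay below all 4 siCtrl libraries for 8 of 10 kinesins, a pattern found in 5.33% of the 12214 genes tested. KIF18A and KIF20B were the exceptions. With siRNA1, over both oxygen levels, 7 of 10 kinesins fell at an adjusted p under 0.05 and 0 rose, where 12.7% of all genes fell and 8.38% rose. With siRNA2 3 of 10 fell and 0 rose, where 6.65% of all genes fell and 14.6% rose. The siRNA1 count was 3 without its hypoxic library and 4 without the second normoxic or the first hypoxic siCtrl library, and the siRNA2 count was 0 without either of its libraries. Without the filter on low values KIF11, KIF15 and KIF18A did not pass with siRNA1 (limma, adjusted p 0.0622 to 0.105). The comparisons of siRNA1 and of siRNA2 share the same 4 siCtrl libraries. In bulk RNA, fewer cells in mitosis and less of the transcript per mitotic cell cannot be told apart.

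KIF20A (MKLP2) carries the chromosomal passenger complex to the spindle midzone at anaphase. It was at 14.8 and 17.8 RPKM in normoxic siCtrl and at 23.3 and 17.1 in hypoxic siCtrl, against 6.43 in normoxia and 4.61 in hypoxia with siRNA1 and 7.01 and 8.91 with siRNA2. Every siOC2 library was thus below every siCtrl library. KIF20A fell by 1.71 with siRNA1 (SE 0.24, limma adjusted p = 0.000841) and by 1.18 with siRNA2 (SE 0.24, adjusted p = 0.00579). The siRNA1 call held without each library in turn. The siRNA2 call was lost without its normoxic library (−1.03, adjusted p = 0.0931) and without its hypoxic library (−1.33, adjusted p = 0.0523).

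CENPE is the kinetochore motor that brings unaligned chromosomes to the metaphase plate. It stood at 17.5 and 21.2 RPKM in normoxic and 19.5 and 26.9 in hypoxic siCtrl, against 9.03 and 2.25 with siRNA1 and 12.03 and 13.6 with siRNA2 (normoxia, then hypoxia). The groups did not overlap, and the hypoxic siRNA1 library stood far below the rest. CENPE fell by 2.19 with siRNA1 (SE 0.40, limma adjusted p = 0.00336), a call that also held without each library in turn, although the difference was −1.10 without the hypoxic siRNA1 library (adjusted p = 0.0146) and −3.28 without the normoxic one. The difference with siRNA2 was −0.71 (SE 0.40, adjusted p = 0.225).

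KIF11 (Eg5), which slides antiparallel microtubules apart to make the spindle bipolar, was lower with both reagents. Its siCtrl libraries read 12.3 and 13.7 RPKM in normoxia and 16.4 and 13.7 in hypoxia, and the siOC2 libraries 9.76 and 7.89 with siRNA1 and 7.69 and 7.85 with siRNA2. These groups did not overlap. KIF11 fell by 0.66 with siRNA1 (SE 0.20, limma adjusted p = 0.0391) and by 0.84 with siRNA2 (SE 0.20, adjusted p = 0.0148). KIF15, a motor that can hold the spindle apart when KIF11 is blocked, was at 2.41 and 2.81 RPKM in normoxic and 2.52 and 2.55 in hypoxic siCtrl, against 1.87 and 0.667 with siRNA1 and 1.91 and 1.92 with siRNA2. All siOC2 values were lower, and the hypoxic siRNA1 library again was the lowest. KIF15 fell by 1.12 with siRNA1 (SE 0.33, limma adjusted p = 0.0342), while its difference with siRNA2 was −0.41 (SE 0.33, adjusted p = 0.413). Without the hypoxic siRNA1 library the siRNA1 differences were −0.44 for KIF11 (limma, adjusted p = 0.214) and −0.45 for KIF15 (adjusted p = 0.337). Both siRNA1 calls were lost also without the second normoxic or either hypoxic siCtrl library (adjusted p 0.0654 to 0.0998), and the siRNA2 call of KIF11 without either siRNA2 library (adjusted p 0.116 and 0.156).

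KIF4A, a chromokinesin that acts on chromosome arms and, with PRC1, sets the length of the midzone overlap, gave the third call shared by both siRNAs. It was at 2.57 and 3.23 RPKM in normoxic and 2.98 and 2.86 in hypoxic siCtrl, against 0.984 and 1.52 with siRNA1 and 1.36 and 1.41 with siRNA2. The groups were apart, with no siOC2 library near the siCtrl range. KIF4A fell by 1.18 with siRNA1 (SE 0.27, limma adjusted p = 0.0119) and by 1.02 with siRNA2 (SE 0.27, adjusted p = 0.0233). The siRNA1 call held without each library in turn. The siRNA2 call was lost without either siRNA2 library, the second normoxic or either hypoxic siCtrl library, with an adjusted p of 0.0511 to 0.22 for KIF4A.

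KIF2C (MCAK) takes tubulin off microtubule ends at the centromere and corrects wrong attachments. It was at 6.25 and 9.07 RPKM in normoxic and 7.12 and 6.78 in hypoxic siCtrl, against 3.58 and 2.85 with siRNA1 and 3.60 and 5.36 with siRNA2. No siOC2 value reached the siCtrl range. KIF2C fell by 1.15 with siRNA1 (SE 0.25, limma adjusted p = 0.00882), and without the hypoxic siRNA1 library the difference was −0.94 (adjusted p = 0.0632). With siRNA2 it was −0.71 (SE 0.25, adjusted p = 0.0681).

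KIF18A, which damps the oscillation of chromosomes at the metaphase plate, passed with siRNA1 only. The direct comparison of the siRNAs, given below, did not pass for it. Its siCtrl libraries read 2.39 and 2.51 RPKM in normoxia and 2.93 and 1.61 in hypoxia, against 1.44 and 0.840 with siRNA1 and 2.399 and 2.27 with siRNA2. Only the siRNA1 values lay below all siCtrl values. KIF18A fell by 1.00 with siRNA1 (SE 0.31, limma adjusted p = 0.0401), and its difference with siRNA2 was 0.01 (95% interval −0.66 to 0.69, adjusted p = 0.979). The siRNA1 call was lost without its hypoxic library (−0.71, adjusted p = 0.221), and without either normoxic or the first hypoxic siCtrl library (adjusted p 0.0595 to 0.11).

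KIF14, KIF20B and KIF23 passed the test with neither siRNA. KIF23 (MKLP1), the motor of centralspindlin, was at 19.4 to 22.2 RPKM in the 4 siCtrl and at 12.4 to 18.3 in the 4 siOC2 libraries, which did not overlap. Its differences were −0.52 with siRNA1 (limma, adjusted p = 0.0716) and −0.35 with siRNA2 (adjusted p = 0.213). KIF14, which brings citron kinase to the midzone, was at 10.5 to 15.2 RPKM in siCtrl and at 7.67 to 9.82 in siOC2, and differed by −0.49 (limma, adjusted p = 0.133) and −0.36 (adjusted p = 0.259). KIF20B (MPP1), which acts at the midbody, read 11.7 to 16.1 RPKM in siCtrl and 7.01 to 11.99 in siOC2. These ranges overlapped through the normoxic siRNA1 library, and the differences were −0.50 (limma, adjusted p = 0.209) and −0.51 (adjusted p = 0.195).

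**Figure D2:**
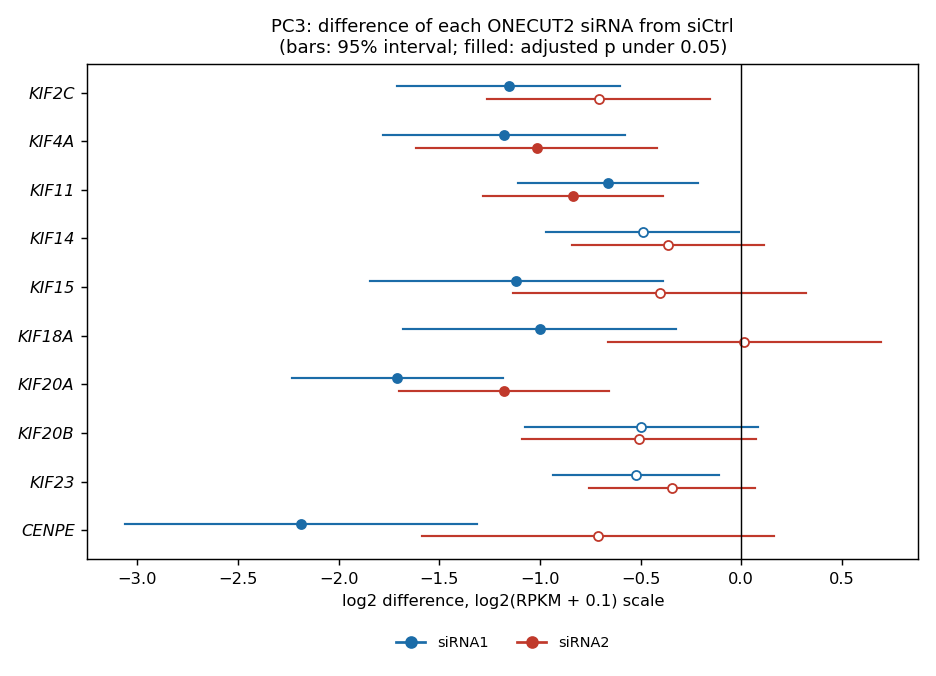
Log2 difference from siCtrl of each kinesin in PC3 with siRNA1 (blue) and siRNA2 (red) over both oxygen levels, with 95% intervals and filled points at an adjusted p under 0.05. The filled points are 7 for siRNA1, reaching −2.19 for CENPE, and 3 for siRNA2, KIF4A, KIF11 and KIF20A, and the KIF18A point of siRNA2 sits at 0.01.

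Set against each other, the siRNAs differed for one kinesin. CENPE was lower with siRNA1 than with siRNA2 (difference −1.48, 95% interval −2.49 to −0.47, limma adjusted p = 0.0388), where 17.6% of all genes were lower at the same limit. Without the hypoxic siRNA1 library the CENPE difference was −0.39 (limma, adjusted p = 0.344), and the call was lost also without the normoxic (−1.81, adjusted p = 0.0689) or the hypoxic siRNA2 library (−1.14, adjusted p = 0.306). KIF18A came next with −1.01 (95% interval −1.80 to −0.23, limma adjusted p = 0.0599). For KIF11 and KIF20B the difference between reagents was 0.17 (95% interval −0.34 to 0.69) and 0.01 (95% interval −0.66 to 0.68). The median of the 10 kinesins was −1.06 with siRNA1, where all genes had a median of −0.07, and −0.61 with siRNA2, where all genes had 0.20. Without the hypoxic siRNA1 library the first was −0.58, and without the normoxic siRNA2 library the second was −0.34. At single oxygen levels, each siRNA has 1 library. The median of the kinesins against the siCtrl mean was then −0.59 (siRNA1, normoxia), −1.11 (siRNA1, hypoxia), −0.69 (siRNA2, normoxia) and −0.40 (siRNA2, hypoxia), with no replicate check.

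With both siRNAs as one siOC2 group at each oxygen level, all 10 kinesins were lower and none passed the adjusted limit. In normoxia the median difference was −0.51, against 0.13 for all genes, of which 38.7% were lower. The groups did not overlap for 8 of 10 kinesins, against 15% of genes lower without overlap. At an adjusted p under 0.05 limma gave 0 kinesins and 0.00819% of genes lower. At an unadjusted p under 0.05 it gave 3 kinesins, KIF2C (−1.05), KIF4A (−1.25) and KIF20A (−1.26), and 2.55% of genes lower. These 3 also had a fold over 2, as did 1.59% of genes. In hypoxia the median was −0.87, against −0.03 for all genes, of which 52.4% were lower, and 9 of 10 kinesins did not overlap, against 19.6%. Here limma gave 0 kinesins at the adjusted limit, with 0.0491% of genes lower, and 4 at an unadjusted p under 0.05 (KIF4A, KIF11, KIF20A and CENPE), with 6.32% of genes. The hypoxic median was −0.40 without the siRNA1 library. KIF20A (−1.62, limma adjusted p = 0.128) and CENPE (−2.02, adjusted p = 0.295) had an unadjusted p under 0.05 and a fold over 2, with 3.95% of genes. Without the siRNA1 library the CENPE difference was −0.75, and without the siRNA2 library it was −3.29.

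The siOC2 difference was not shown to depend on oxygen. The difference of the siOC2 effect between hypoxia and normoxia had a median of −0.29 over the kinesins, against −0.17 over all genes, and turned to 0.081 without the hypoxic siRNA1 library. For CENPE it was −1.14 with a 95% interval of −3.37 to 1.10, and for KIF20A −0.36 with an interval of −1.53 to 0.80. At an adjusted p under 0.05 limma gave 0 kinesins and 0% of genes in either direction, and at an unadjusted p under 0.05 it gave 0 kinesins, with 0.254% of genes higher and 0.778% lower.

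Overexpression of Flag-OC2 in LNCaP also came with lower kinesin values, of smaller size. In normoxia all 10 kinesins were lower than with empty vector, with a median of −0.36, but 61.3% of the 12283 genes tested were lower too, with a median of −0.08. In hypoxia all 10 were again lower, with a median of −0.40, where 51.7% of genes were lower and the median of all genes was −0.01. At an adjusted p under 0.05 limma gave 0 kinesins in normoxia, where 1.7% of genes fell, and 2 in hypoxia, KIF20A and KIF20B, where 4.82% of genes fell. At an unadjusted p under 0.05 it gave 4 in normoxia, KIF2C, KIF4A, KIF11 and KIF20B, with 14.6% of genes lower. The 4 Flag-OC2 libraries lay below the 4 empty vector libraries for KIF4A, KIF11, KIF20A and KIF20B, 4 of 10, against 5.43% of genes. Markers of the androgen-responsive luminal state, which are not mitotic genes, were lower beside the kinesins. Of KLK2, KLK3, FOLH1, TMPRSS2 and HOXB13, 5 of 5 were lower in normoxia (median −0.35, 0 at an adjusted p under 0.05 by limma and 4 at an unadjusted one) and 5 of 5 in hypoxia (median −0.45, with KLK2, KLK3 and FOLH1 past the adjusted limit). Their sum was 3144 to 3159 RPKM with empty vector and 2749 to 2787 with Flag-OC2 in normoxia, and 5544 to 5883 against 4076 to 4292 in hypoxia, and their part in the kinesin differences was not tested.

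KIF20A was at 36.5 and 31.9 RPKM in normoxic and 34.1 and 33.2 in hypoxic empty vector cells, against 29.9 and 28.6 in normoxic and 26.7 and 22.5 in hypoxic Flag-OC2 cells. The 4 values with ONECUT2 were the 4 lowest. It fell by 0.45 in hypoxia (SE 0.12, limma adjusted p = 0.0447), and its difference in normoxia was −0.22 (adjusted p = 0.291). KIF20B was at 10.3 and 7.67 RPKM in normoxic and 9.63 and 9.60 in hypoxic empty vector cells, against 6.78 and 7.01 and then 6.12 and 6.63 with Flag-OC2. It too had the Flag-OC2 libraries lowest. KIF20B fell by 0.59 in hypoxia (SE 0.15, limma adjusted p = 0.0452), and its difference in normoxia was −0.37 (adjusted p = 0.195). Both calls were lost without any one of the 4 hypoxic libraries, with adjusted p of 0.0932 to 0.208 for KIF20A and 0.112 to 0.241 for KIF20B. They were lost also with upper-quartile scaling or without the filter on low values (adjusted p 0.0613 to 0.0872).

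KIF4A came nearest to the limit in normoxia. It was at 10.2 and 8.38 RPKM with empty vector and at 6.01 and 6.63 with Flag-OC2, groups that did not overlap, and differed by −0.54 (SE 0.14, limma adjusted p = 0.0672). In hypoxia it read 6.83 and 7.61 against 5.71 and 6.16 RPKM, a difference of −0.28 (adjusted p = 0.249). KIF11 was at 10.98 and 8.11 RPKM in normoxic and 8.87 and 8.88 in hypoxic empty vector cells, against 7.56 and 7.10 and then 6.74 and 6.29 with Flag-OC2. Its differences, −0.36 (limma, adjusted p = 0.202) and −0.44 (adjusted p = 0.104), did not pass.

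The other kinesins lay between −0.23 and −0.50 in normoxia and between −0.19 and −0.50 in hypoxia. Without overlap, 8 of 10 kinesins were lower in normoxia, against 31.4% of genes, and 9 of 10 in hypoxia, against 34.8%. KIF15 and KIF23 overlapped in normoxia and CENPE in hypoxia. The first normoxic empty vector library was the highest of the 8 LNCaP libraries for 8 of 10 kinesins. With CENPE, for instance, it read 53.9 RPKM, against 33.4 in the second. Without that library the normoxic median was −0.14, and without the second normoxic empty vector library it was −0.63. The difference of the ONECUT2 effect between oxygen levels had a median of −0.02 over the kinesins, and at an adjusted p under 0.05 limma gave 0 kinesins, against 0.106% of genes higher and 0.138% lower. At an unadjusted p under 0.05 it gave 0 kinesins, against 10.3% of genes higher and 6.55% lower.

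**Figure D3:**
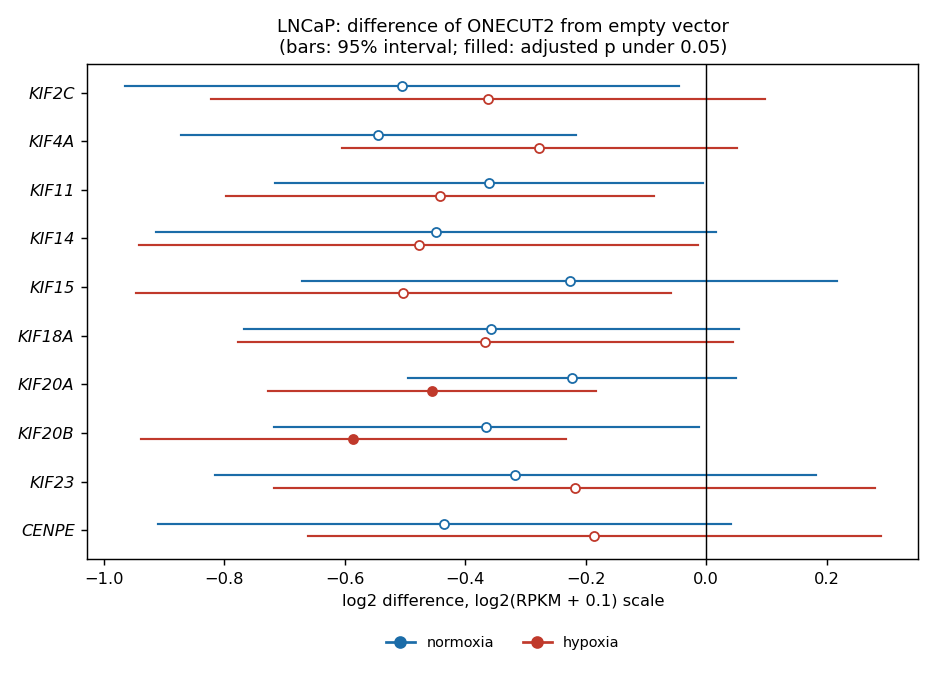
Log2 difference of Flag-OC2 from empty vector for each kinesin in LNCaP, in normoxia (blue) and hypoxia (red), with 95% intervals and filled points at an adjusted p under 0.05. All points lie below 0 and the filled ones are KIF20A at −0.45 and KIF20B at −0.59 in hypoxia.

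Hypoxia alone moved few kinesins. In PC3 siCtrl the 10 differences ran from −0.17 to 0.30, 6 higher and 4 lower, with a median of 0.09 against −0.07 for all genes. For 0 of 10 the hypoxic and normoxic libraries were apart, against 22.1% of genes higher and 32.9% lower without overlap. At an adjusted p under 0.05 limma gave 0 kinesins, 0.27% of genes higher and 0% lower, and at an unadjusted p under 0.05 0 kinesins, 4.03% of genes higher and 3.35% lower. The intervals were wide, −0.53 to 1.13 for KIF20A and −1.33 to 1.83 for CENPE.

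In LNCaP empty vector cells CENPE was at 53.9 and 33.4 RPKM in normoxia and at 29.4 and 25.3 in hypoxia. The hypoxic libraries were both below the normoxic ones, which were far apart from each other. CENPE fell by 0.64 (SE 0.21, limma adjusted p = 0.0465), where 14.1% of genes fell, and it was the only kinesin to pass. Without the first normoxic library its difference was −0.29 (adjusted p = 0.167). It was lost also without either hypoxic library (−0.74, adjusted p = 0.0951, and −0.53, adjusted p = 0.198), without the filter on low values and in a fit to these 2 groups alone (adjusted p 0.112 and 0.0986). KIF4A differed by −0.36 (limma, adjusted p = 0.0907) and KIF14, at 4.42 and 3.20 RPKM in normoxia and 4.86 in both hypoxic libraries, by 0.36 (adjusted p = 0.204). For these 3 of 10 kinesins the libraries did not overlap, against 37.1% of genes higher and 32.4% lower. The median of the kinesins was 0.07, against 0.02 for all genes, and turned to −0.020 with upper-quartile scaling.

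In treated cells the hypoxic and normoxic values were set side by side. With siOC2 the median kinesin difference was −0.13, with −0.89 for CENPE and −0.68 for KIF15, the hypoxic siRNA1 library being the lowest for both. With Flag-OC2 it was −0.05.

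**Figure D4:**
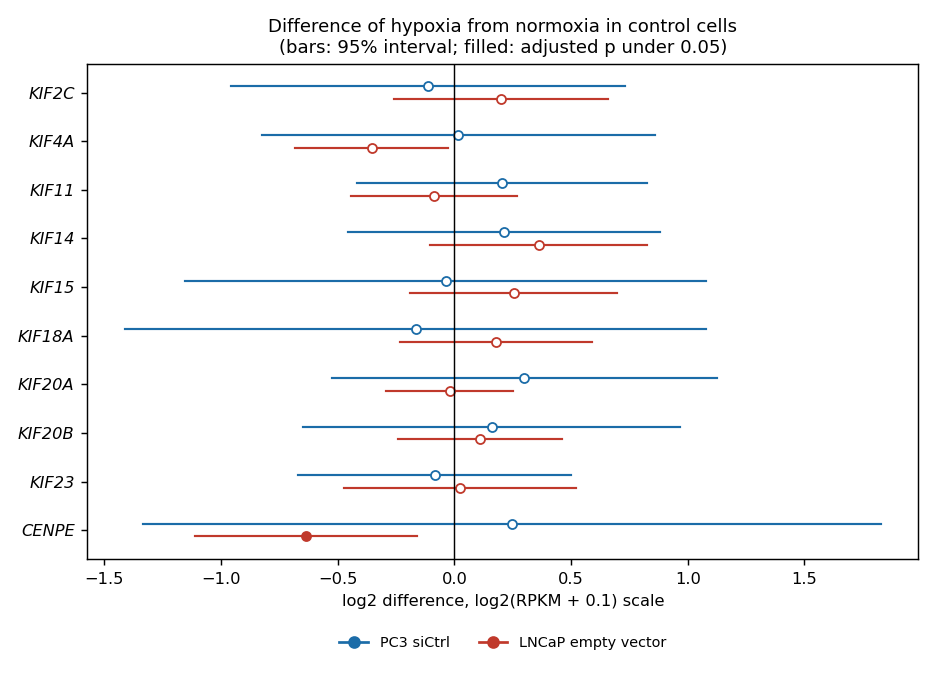
Log2 difference of hypoxia from normoxia for each kinesin in PC3 siCtrl (blue) and LNCaP empty vector cells (red), with 95% intervals and filled points at an adjusted p under 0.05. All PC3 intervals cross 0, and CENPE in LNCaP at −0.64 is the only filled point.

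Most genes that work with the kinesins were also lower in PC3. Of 12 partner proteins, which include the chromosomal passenger complex, PRC1, RACGAP1 and mitotic kinases, 8 fell and 0 rose with siRNA1, with a median of −0.75, where 12.7% of all genes fell. Of these 12, 1 was higher with siRNA1, by 0.50, and did not pass. With siRNA2 8 fell and 0 rose, with a median of −0.70, where 6.65% of all genes fell. TPX2, which activates AURKA at the spindle, fell by 1.10 with siRNA1 (limma, adjusted p = 0.00246), and AURKA by 1.00 (adjusted p = 0.00298). INCENP, the scaffold of the passenger complex, fell with siRNA1 by 1.15 (limma, adjusted p = 0.00373) and with siRNA2 by 1.04 (adjusted p = 0.0063). AURKB, the kinase of that complex, fell by 1.17 with siRNA2 (limma, adjusted p = 0.00503), and its subunit BIRC5 by 0.79 (adjusted p = 0.00805).

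The general proliferation markers moved with them. Of 7 such genes 7 fell with siRNA1 (median −0.84) and 2 with siRNA2 (median −0.44), and 0 rose, beside the same shares of all genes. CCNA2, cyclin A2, fell by 1.77 with siRNA1 (limma, adjusted p = 0.000925), MKI67 by 1.26 (adjusted p = 0.00215) and PCNA by 0.77 (adjusted p = 0.00967). TOP2A fell by 1.04 with siRNA2 (limma, adjusted p = 0.0037) and PCNA by 0.70 (adjusted p = 0.0149). The summed level of these 7 genes was 520 to 642 RPKM over the 4 siCtrl libraries and 262 to 380 over the 4 siOC2 libraries, and that of the 10 kinesins 103 to 128 and 47.7 to 77.6. No proliferation marker was at 0 in PC3. The part of the share of dividing cells in the kinesin differences was not tested.

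In LNCaP both lists were lower with Flag-OC2. With Flag-OC2 in hypoxia, where 4.82% of all genes fell, 11 of 12 partner proteins fell (median −0.59), as did 4 of 7 proliferation markers (median −0.47), and in normoxia, where 1.7% fell, 2 of 12 (median −0.34) and 0 of 7 (median −0.34). In hypoxia the mitotic kinase PLK1 fell by 0.85 (limma, adjusted p = 0.00227), the cytokinesis factor ECT2 by 0.57 (adjusted p = 0.0108) and the checkpoint kinase BUB1B by 0.80 (adjusted p = 0.0126). ECT2 also fell in normoxia, by 0.56 (limma, adjusted p = 0.0188), as did the passenger complex subunit CDCA8, by 0.54 (adjusted p = 0.035). Among the markers PCNA fell in hypoxia by 0.47 (limma, adjusted p = 0.0255), MCM2 by 0.71 (adjusted p = 0.0255) and MKI67 by 0.46 (adjusted p = 0.0316). The proliferation markers summed to 583 to 682 RPKM over the 4 empty vector libraries and to 462 to 523 over the 4 Flag-OC2 libraries, although CCNA2 was listed at 0 in 3 of the 8 libraries.

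All 5 tested of the other mitotic kinesins were lower with each siRNA and with Flag-OC2 at each oxygen level, some by very little. The smallest differences were −0.29 with siRNA1 and −0.04 with siRNA2. With Flag-OC2 they were −0.02 in normoxia and −0.06 in hypoxia, where 61.3% and 51.7% of genes were lower. With siRNA1 3 of 5 fell (median −1.04, against 12.7% of genes), namely KIF18B by 1.05 (limma, adjusted p = 0.00327), KIFC1 by 1.05 (adjusted p = 0.0143) and KIF22 by 0.98 (adjusted p = 0.0243). With siRNA2 2 of 5 fell (median −0.24, against 6.65% of genes), the depolymerase KIF2A by 1.13 (limma, adjusted p = 0.00319) and the minus-end motor KIFC1 by 0.97 (adjusted p = 0.0203). With Flag-OC2 in hypoxia 3 of 5 fell, against 4.82% of genes, KIF22 by 1.00 (limma, adjusted p = 0.00537), KIF18B by 0.95 (adjusted p = 0.00686) and KIFC1 by 0.48 (adjusted p = 0.0187), and in normoxia 0 of 5 did (medians −0.48 in hypoxia and −0.37 in normoxia). In LNCaP empty vector cells the chromokinesin KIF22 rose in hypoxia by 1.06 (limma, adjusted p = 0.00148). KIF2B was listed at 0 in all 16 libraries and was not tested.

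Kinesins of organelle and vesicle transport, which are not tied to cell division, had medians near that of all genes. Of 12 tested, 3 fell and 1 rose with siRNA1 (median −0.22), and 0 fell and 1 rose with siRNA2 (median 0.06). Of all genes 12.7% fell and 8.38% rose with siRNA1, and 6.65% fell and 14.6% rose with siRNA2. The heavy chain KIF5B fell with siRNA1 by 1.55 (limma, adjusted p = 0.00155), KIF3B by 1.29 (adjusted p = 0.00547) and KIF13A by 0.97 (adjusted p = 0.0282), while the axonal motor KIF1A rose with siRNA2 by 2.24 (adjusted p = 0.00824). In LNCaP 0 of 12 fell with Flag-OC2, where 1.7% of genes fell in normoxia and 4.82% in hypoxia. The neuronal heavy chain KIF5C rose by 0.47 in normoxia (limma, adjusted p = 0.0294) and by 0.46 in hypoxia (adjusted p = 0.02). The share of all genes that rose is not given here.

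Of 14 regulators of late cell cycle promoters, most did not pass. With siRNA1 2 fell and 1 rose, and with siRNA2 1 fell and 1 rose, shares near or below those of all genes (12.7% fell and 8.38% rose with siRNA1, 6.65% and 14.6% with siRNA2). FOXM1, an activator at CHR elements, fell with siRNA1 by 1.06 (limma, adjusted p = 0.0022), and LIN52, a MuvB subunit, by 1.61 (adjusted p = 0.00396). Neither passed with siRNA2. In normoxia with siRNA2 FOXM1 was at 26.4 RPKM (siCtrl 25.5 and 28.6) and LIN52 at 2.03 (siCtrl 3.32 and 2.34). CDKN1A, the inhibitor p21 that favours DREAM assembly, rose with siRNA1 by 1.25 (limma, adjusted p = 0.00234) and with siRNA2 by 1.92 (adjusted p = 0.000193). The DREAM pocket protein RBL1 fell with siRNA2 by 0.69 (limma, adjusted p = 0.0479). With Flag-OC2, CDKN1A rose in normoxia by 0.96 (limma, adjusted p = 0.00948) and in hypoxia by 0.90 (adjusted p = 0.0078). MYBL2, which encodes B-MYB, fell by 0.68 in normoxia (limma, adjusted p = 0.012) and by 0.73 in hypoxia (adjusted p = 0.0058), and FOXM1 fell in hypoxia by 0.72 (adjusted p = 0.0105). Over the 14 regulators the median with Flag-OC2 was −0.18 in normoxia (4 higher) and −0.22 in hypoxia (5 higher). All genes had medians of −0.08 and −0.01, and 1.7% and 4.82% of them fell. CDKN1A thus rose, and kinesin values were lower, both with ONECUT2 depleted in PC3 and with it overexpressed in LNCaP. A link between CDKN1A and the kinesin values was not tested.

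The genes outside these lists whose levels followed the mean of the 10 kinesins most closely, after centring each line on its own mean, were SPC25, HMMR, DLGAP5, CKAP2 and CCNB2. Their Pearson correlation over the 16 libraries ran from 0.973 for SPC25, a kinetochore subunit, to 0.960 for CCNB2, cyclin B2, among 10880 genes compared. Against the mean of the other 9 kinesins, each kinesin had a correlation between 0.752 (KIF4A) and 0.920 (KIF20A). CENPE followed the others closely in PC3 (0.889 over 8 libraries) and less so in LNCaP (0.478). The libraries share their depth, reagents and oxygen levels across genes, and these values are a description.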

How the data were processed

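RNA-Seq was analysed in 16 libraries, 4 groups of 2 per cell line, and 12 ChIP-Seq samples were not analysed here. Per the study's methods the authors made stranded mRNA libraries, used STAR (2.4.2a) for alignment to hg19, after trimming, and Cufflinks (2.1.1) with GENCODE gene models on GRCh37 for the deposited RPKM values; the submitters' processing notes name the same tools. Depth is not stated, so no counting error could be given.

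A gene was kept where 2 or more libraries of a line reached 1 RPKM (12214 in PC3, 12283 in LNCaP). Values were analysed as log2(RPKM + 0.1) with limma 3.58.1 in R 4.3.3, with group means, a mean-variance trend, 2-sided tests and Benjamini-Hochberg adjustment over all genes of the line. The pseudocount understates changes of low genes. Each siRNA was compared with siCtrl in a model with oxygen as a term (2 against 4 libraries). The scripts were checked on simulated data.

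The kinesins and lists were chosen with earlier results of these data known. All 10 kinesins are named, with KIF4B, ONECUT2, CA9, up to 3 genes of smallest P of each other list per comparison, and the 5 genes most correlated with the kinesin mean. Groups came from the labels. Library numbers did not pair the samples outside the siOC2 groups, where they stand for the siRNA (correlation of deviations 0.62, elsewhere −0.19 to 0.27). Alternatives were pseudocount 1, no filter, upper-quartile scaling, 0 as missing, a replicate block, fits to 2 or 6 groups and leaving out each library. Promoters came from the RefSeq table and were placed in GRCh37 by exact match. Some luminal markers are not reported here.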

Additional observations from a re-analysis of the deposited data

Results flagged for a closer look

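CENPE in PC3 differed between the siRNA sequences under the same contrast with siCtrl, and is given here because that difference was itself tested. It was −1.48 for siRNA1 over siRNA2 on the log2 scale (limma, adjusted p = 0.0388), lower at both oxygen levels (9.03 against 12.03 RPKM in normoxia and 2.25 against 13.6 in hypoxia). Over the alternatives that end the call, the adjusted p ran from 0.0689 to 0.344.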

How the results depend on the processing

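With 2 libraries a group, single libraries set several values. The members' medians with siRNA1, siRNA2, siOC2 in hypoxia and siRNA1 over siRNA2 ran from −1.16 to −0.58, −0.84 to −0.34, −1.11 to −0.40 and −0.59 to −0.090 on leaving out each library, and the numbers of kinesins that passed from 3 to 10, 0 to 3, 0 to 3 and 0 to 4. The lowest siRNA1 count is without the hypoxic siRNA1 library, and the highest without the normoxic one. For siRNA2 no kinesin passed without either of its libraries. For siOC2 in hypoxia the 3 were without the siRNA2 library. In LNCaP, Flag-OC2 in normoxia ran from −0.63 to −0.14 with 0 to 3 kinesins, the 3 without the second empty vector library, and in hypoxia 0 passed in each case. Hypoxia in empty vector cells ran from −0.11 to 0.36 with 0 to 2 kinesins. Hypoxia in siCtrl ran from −0.030 to 0.19, and the differences of effect between oxygen levels from −0.53 to 0.081 (PC3) and −0.26 to 0.20 (LNCaP).

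Some kinesins changed sign on leaving out a library. For hypoxia in siCtrl, KIF2C ran from −0.38 to 0.15, KIF4A −0.14 to 0.17, KIF14 −0.028 to 0.45, KIF15 −0.15 to 0.069, KIF18A −0.58 to 0.25, KIF20B −0.066 to 0.39 and KIF23 −0.18 to 0.016. For the PC3 difference of effects, KIF2C ran from −0.21 to 0.68, KIF15 −1.34 to 0.059, KIF18A −0.90 to 0.44, KIF20A −0.83 to 0.10, KIF20B −0.61 to 0.057 and CENPE −2.41 to 0.14. KIF20B with siRNA1 ran from −1.02 to 0.031, KIF18A with siRNA2 from −0.13 to 0.20 and KIF18A with siOC2 in hypoxia from −1.27 to 0.060. For siRNA1 over siRNA2, KIF4A ran from −0.44 to 0.11, KIF11 −0.052 to 0.40, KIF14 −0.37 to 0.11, KIF20B −0.51 to 0.54 and KIF23 −0.37 to 0.019. For Flag-OC2 in normoxia, KIF15 ran from −0.49 to 0.040 and KIF23 −0.69 to 0.056. For hypoxia in empty vector cells, KIF2C ran from −0.10 to 0.50, KIF11 −0.30 to 0.13, KIF15 −0.012 to 0.52, KIF18A −0.039 to 0.39, KIF20A −0.12 to 0.075, KIF20B −0.10 to 0.32 and KIF23 −0.35 to 0.40. For the LNCaP difference of effects, KIF2C ran from −0.15 to 0.44, KIF11 −0.30 to 0.13, KIF14 −0.26 to 0.20, KIF18A −0.23 to 0.21, KIF23 −0.27 to 0.47 and CENPE −0.095 to 0.59.

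Other settings moved fewer results. Pseudocount 1 gave a siRNA1 median of −0.68, as it shrinks low genes. Without the filter, which adds genes to the adjustment, 4 kinesins passed with siRNA1 (KIF2C, KIF4A, KIF20A and CENPE), and 0 for siRNA1 over siRNA2, Flag-OC2 in hypoxia and hypoxia in empty vector cells. Upper-quartile scaling gave 2 for siRNA1 over siRNA2, 0 for Flag-OC2 in hypoxia and 2 for hypoxia in empty vector cells, where the median became −0.020 and KIF23 −0.063; its largest shift of a median was −0.36 to −0.25, for Flag-OC2 in normoxia. The fit to 2 groups gave 4 for Flag-OC2 in hypoxia and 0 for hypoxia in empty vector cells. The fit of 6 groups gave 5 with siRNA2 and 2 for siRNA1 over siRNA2. With the replicate block 2 kinesins passed with siRNA1 (KIF20A and CENPE), 1 with siRNA2 (KIF20A), 0 for siRNA1 over siRNA2 (KIF20B −0.18) and 1 for Flag-OC2 in hypoxia (KIF20A), and other counts kept their side. With the siCtrl normoxia numbers crossed in the block, a choice made after seeing the data, 0 passed for siOC2 and for hypoxia in siCtrl. Alternatives for siRNA1 over siRNA2 were also chosen after seeing the data. Where no reason is given, the cause was not tested.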
